A study of Mus musculus with 33 samples.

Results

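The neurotrophin receptor Ngfr and 4 of its relatives were followed through differentiation of mouse cultures with a retinoic acid receptor agonist or inverse agonist. The 5 genes were taken by symbol from a table of 17120 genes, and all 5 were in it. They are the receptors Ngfr, Ntrk2 and Ntrk3 and the ligands Ntf3 and Bdnf. Ngfr was picked because its difference between the ligand conditions grew steadily with time, so its difference between conditions is described below with no test. The other 4 genes were added as members of the same signalling family.

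Cultures were grown from mouse embryonic stem cells derived from blastocysts of mice carrying ScxGFP, a fluorescent reporter for the tendon transcription factor Scx. Embryoid bodies were directed to paraxial mesoderm (PM), sampled on day 6 (D6), with the Wnt agonist CHIR and the BMP inhibitor LDN-193189. They were then plated as a monolayer with TGFβ1, the hedgehog agonist SAG and FGF2, together with CD1530, which activates retinoic acid receptor gamma, or with AGN 193109 (AGN from here on), which silences all retinoic acid receptors as an inverse agonist. After 0.25, 0.75, 1.5, 2.5 and 4 days of this induction both conditions were sampled, and these times are named by the culture day, from D6.25 and D6.75 through D7.5 and D8.5 to D10. Each of the 11 groups held 3 libraries.

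What all groups share limits them as models. Every culture carried the reporter and was exposed to CHIR and LDN-193189 before D6, and per the study's methods this protocol held a retinoid ligand, AGN 193109 in one version, already from D2 to D6. The PM label does not say which version was used. The methods give CD1530 and AGN different concentrations, and there was no induced culture without a retinoid ligand, so a difference between conditions has no neutral reference. The labels give PM as embryoid bodies and all later samples as monolayer, so the change of format and the start of induction cannot be told apart. The methods call the 3 libraries of a group biological replicates, while the labels only number them, and the sources used here do not give which stem cell line made which library.

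Neurotrophins are secreted growth factors that act through receptors of 2 unrelated kinds. The Trk receptors are tyrosine kinases with preferred ligands: TrkB, the product of Ntrk2, binds BDNF, and TrkC, the product of Ntrk3, binds NT-3, the product of Ntf3. Ngfr encodes p75, a member of the tumour necrosis factor receptor family that binds all mature neurotrophins and, together with sortilin-type partners, their precursors. The family is best known from neurons, where it sets survival and axon growth, and p75 is also a marker of neural crest cells, Schwann cells and some mesenchymal progenitors.

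Ngfr (ENSMUSG00000000120) lies on the reverse strand of chromosome 11 at chr11:95568818-95587735 (GRCm38). Ntrk2 lies at chr13:58806569-59133970, forward, and Ntrk3 at chr7:78175959-78738012, reverse. Bdnf lies at chr2:109674700-109727007, forward, and Ntf3 at chr6:126101412-126166910, reverse. In GENCODE M21 the exons of Bdnf overlap those of Gm45346, a gene on the opposite strand that is not among the 17120, and no exon of another gene overlaps those of the other 4. Whether the counting used strand is not given in the sources used here. Gene counts do not separate isoforms, so full-length Ntrk2 and Ntrk3 and their forms without the kinase are pooled.

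The cultures received retinoid ligands, so the start of each gene was searched for AGGTCA, the core half-site that retinoic acid receptors recognise, on both strands. The windows are the 250 bases before and 50 after each start in the RefSeq table for GRCm38.p6, which held 1 window for Ngfr, 1 for Ntrk2, 2 for Ntf3 and 7 for Bdnf. Ntrk3 was not matched. Of all 32851 windows of this length, 5340 (16.3%) held AGGTCA, as did 1 of the 11 windows of these genes, at a start of Bdnf. Pairs of half-sites in the same orientation, named DR1, DR2 and DR5 by their spacing, were sought with a looser half-site, [AG]G[GT]TCA. Such pairs were in 0.222%, 0.268% and 0.0974% of all windows and in none of these 11. The Ngfr window is 71.7% G or C with 23 CpG dinucleotides, and the Ntrk2 window is 61.3% with 23, against medians of 52.7% (quartiles 45.7% and 61.7%) and 7 CpG (quartiles 3 and 20) over all windows. The Ngfr window, the Ntrk2 window and the Bdnf window with the half-site in capitals are printed here, 5′ to 3′ on the strand of the gene, as the starts of the genes that the results turn on.
Ngfr, chr11:95587649-95587948, reverse strand: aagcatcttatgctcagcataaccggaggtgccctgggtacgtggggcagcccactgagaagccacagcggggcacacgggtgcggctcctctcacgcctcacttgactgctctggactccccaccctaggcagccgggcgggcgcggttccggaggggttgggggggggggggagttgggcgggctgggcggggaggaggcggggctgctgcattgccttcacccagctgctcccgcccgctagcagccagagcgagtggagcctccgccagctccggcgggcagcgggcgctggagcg
Ntrk2, chr13:58806319-58806618, forward strand: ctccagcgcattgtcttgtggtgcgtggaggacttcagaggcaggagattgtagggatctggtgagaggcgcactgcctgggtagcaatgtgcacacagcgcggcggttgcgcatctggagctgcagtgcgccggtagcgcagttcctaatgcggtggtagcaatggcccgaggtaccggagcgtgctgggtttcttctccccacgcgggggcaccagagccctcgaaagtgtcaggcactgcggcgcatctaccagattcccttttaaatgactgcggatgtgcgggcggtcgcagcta
Bdnf, chr2:109692777-109693076, forward strand: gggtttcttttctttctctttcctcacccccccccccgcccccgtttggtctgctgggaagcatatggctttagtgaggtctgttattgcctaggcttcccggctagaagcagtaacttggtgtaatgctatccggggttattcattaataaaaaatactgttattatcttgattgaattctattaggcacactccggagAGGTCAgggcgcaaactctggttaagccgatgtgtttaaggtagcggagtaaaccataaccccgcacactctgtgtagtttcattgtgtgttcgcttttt
Such a match describes letters only and is not a binding site.

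The libraries held between 17.1 M and 22.8 M counts, except AGN D8.5 replicate 1 with 38.1 M. One library stood apart: CD1530 D6.75 replicate 1 differed from the other replicates of its group with a chi-square per gene of 20.6 and 21.9, against 1.59 to 4.87 in the other 31 pairs of replicates. Values at D6.75 are therefore also given without it. The labelled cell types were only partly borne out by their markers. PM libraries had Tbx6 at 9.56 CPM (counts relative to the TMM-normalised library total) and Msgn1 at 3.38, both defining genes of paraxial mesoderm, while the pluripotency genes Pou5f1 and Nanog stood at 701 and 466 CPM. The tendon gene Scx was at 6.41 CPM in PM, and at D10 its level was 858 with CD1530 and 1223 with AGN. At D10, 5 of 5 retinoic acid target genes were higher in CD1530 than in AGN, as were 22.7% of all genes. These are bulk cultures, in which fewer cells of a type and less RNA per cell cannot be told apart.

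Ngfr climbed through the course with CD1530 and ended below its own first induced level with AGN. In PM its 3 libraries had 44.4, 46.6 and 43.2 CPM, a mean of 44.7 ± 1.71 (SD, n = 3, as for all levels below). With CD1530 it increased at each time to a final 236 ± 1.69 CPM, 5.26-fold the PM level. With AGN it was 86.2 ± 1.23 CPM at D6.25 and 66.0 ± 1.87 CPM at D10, 1.47-fold the PM level. Both conditions thus stood above PM at all 5 times, and the distance between them was smallest in the first samples.

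The D6.25 libraries had 107.5, 109 and 109 CPM of Ngfr with CD1530 and 87.4, 86.1 and 85.0 with AGN. At D6.75 they had 128, 135 and 140 against 97.7, 92.3 and 102. At D7.5 they had 153, 151 and 154 against 84.0, 91.0 and 84.9. The CD1530 libraries rose over these times and the AGN libraries stayed within a narrow band. At D8.5 the values were 189, 201 and 200.3 with CD1530 and 92.2, 94.2 and 96.4 with AGN. At D10 they were 234, 238 and 235 with CD1530 and 68.0, 64.3 and 65.7 with AGN. The 2 conditions did not overlap at any of the 5 times, which is the pattern Ngfr was picked for.

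**Figure D1:**
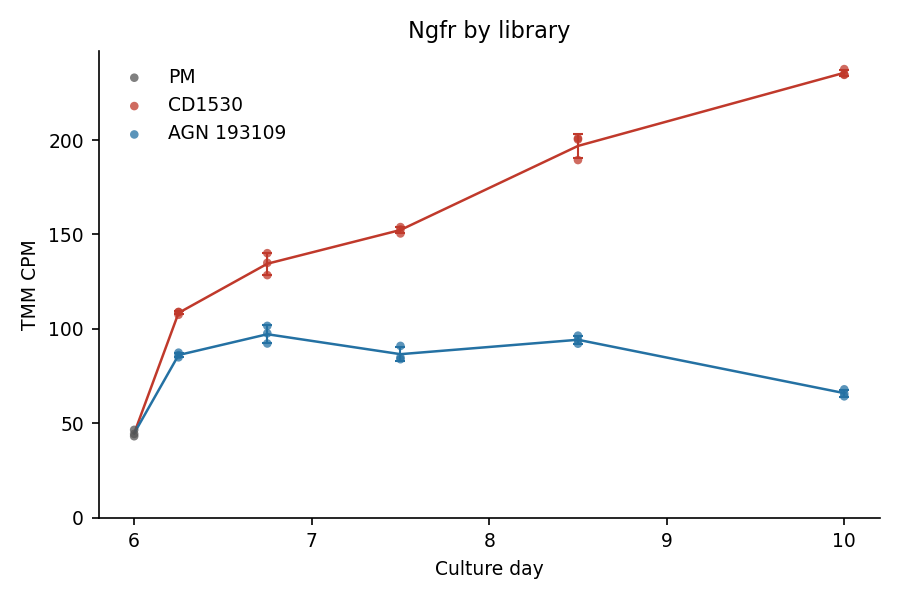
Ngfr level in TMM CPM (vertical axis, from 0) by culture day (horizontal axis). Points are libraries, lines join group means and start from PM, and bars are the SD of 3 libraries. The CD1530 libraries climb to between 234 and 238 CPM at D10, and the AGN libraries end between 64.3 and 68.0 CPM.

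The log2 difference of Ngfr between CD1530 and AGN was 0.33 ± 0.04 (SE) at D6.25. It was 0.47 at D6.75 and 0.81 by D7.5, then 1.06 at D8.5 and 1.84 at D10, with the same SE at each time. As folds these are 1.26, 1.38, 1.76, 2.09 and 3.57. Without the D6.75 library that stood apart, the D6.75 difference was 0.50. From D8.5 to D10 both sides moved: the CD1530 mean went from 197 to 236 CPM and the AGN mean from 94.3 to 66.0 CPM. These values come from the contrast that chose Ngfr and are a description.

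The order of Ngfr over the 11 groups followed condition first. PM was lowest, then AGN D10, AGN D6.25, AGN D7.5, AGN D8.5 and AGN D6.75, and then the 5 CD1530 groups in the order of time. Of the 10 neighbouring pairs in this order 8 did not overlap, and the overlapping pairs were AGN D6.25 with AGN D7.5 and AGN D8.5 with AGN D6.75. Separation of the conditions is what Ngfr was picked for. The share of all genes whose libraries separate is not given here, for Ngfr or for the relatives below. The mean of both conditions against PM does not depend on the difference between them and was tested, though on the same libraries from which Ngfr was picked. At D10 this mean joins log2 values of 2.40 with CD1530 and 0.56 with AGN. It was higher than PM at every time, by a log2 value of 1.11 ± 0.04 (SE) at D6.25 (edgeR quasi-likelihood test, adjusted p = 1.79e-26), 1.35 at D6.75, 1.36 at D7.5, 1.61 at D8.5 and 1.48 ± 0.04 at D10 (adjusted p = 1.97e-31). By the same test 71.5%, 76.0%, 75.9%, 79.4% and 84.9% of all 17120 genes were called at these times, so a call in this comparison is the usual outcome.

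Ntrk3, the receptor for NT-3, showed the widest separation of conditions among the relatives. Its PM libraries had 0.57, 0.57 and 0.97 CPM from 12 to 18 counts each. In CD1530 its mean was 1.29 ± 0.12 CPM at D6.25 and 2.03 ± 0.39 at D6.75, then 7.56 ± 0.64 by D7.5, 8.03 ± 0.51 at D8.5 and 24.8 ± 1.35 at D10. In AGN it stayed between 1.04 and 1.201 CPM up to D8.5 and was 2.31 ± 0.35 at D10. The D10 libraries had 25.9, 23.3 and 25.3 CPM with CD1530 and 2.31, 2.65 and 1.96 with AGN.

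Ntrk3 did not differ detectably between conditions at D6.25, where the log2 difference was 0.11 ± 0.24 (adjusted p = 0.929). At D6.75 it was higher in CD1530 by 0.75 ± 0.22 (adjusted p = 0.0113). The difference was 2.80 ± 0.18 at D7.5 (6.94-fold, adjusted p = 3.28e-16), 3.01 ± 0.18 at D8.5 (8.08-fold, adjusted p = 6.69e-18) and 3.43 ± 0.14 at D10 (10.8-fold, adjusted p = 6.43e-23). All CD1530 libraries lay above all AGN libraries from D6.75 on, and the step came between D6.75 and D7.5. The D6.75 call was lost with only the compared groups in the fit (adjusted p = 0.083), without CD1530 replicate 3 (0.0855) and without AGN replicate 2 (0.0721), and stood at 0.85 without the library that stood apart (adjusted p = 0.00645).

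The growth of the Ntrk3 difference from D6.25 to D10, tested as 1 interaction, was 3.31 ± 0.30 on the log2 scale (adjusted p = 4.56e-12), and 33.3% of all genes were called in that test. The mean of both conditions against PM rose from 0.83 ± 0.24 at D6.25 (adjusted p = 0.00275) to 3.44 ± 0.20 at D10 (adjusted p = 1.39e-19). At D10 Ntrk3 was higher than PM by 5.15 ± 0.17 with CD1530 (adjusted p = 1.22e-27) and by 1.72 ± 0.25 with AGN (adjusted p = 7.74e-08). In the order of its 11 group means, PM, the first 4 AGN groups and CD1530 D6.25 overlapped from neighbour to neighbour, whereas CD1530 D10 stood clear of all others.

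Ntrk2, the receptor for BDNF, had a course of another shape, which both conditions shared. Its PM libraries had 1.15, 0.80 and 1.35 CPM. At D6.25 it was 6.32 ± 0.30 CPM with CD1530 and 7.32 ± 0.66 with AGN, above every library of its condition at D6.75. The CD1530 mean was 2.90 ± 0.67 CPM at D6.75 and 3.28 ± 0.49 at D7.5, and the AGN mean was 4.66 ± 1.02 and 2.45 ± 0.14. It then stood at 9.09 ± 1.02 with CD1530 and 9.99 ± 0.34 with AGN at D8.5. At D10 the libraries had 17.1, 18.9 and 20.01 CPM with CD1530 and 11.4, 11.02 and 12.4 with AGN, the highest levels of both conditions.

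Between conditions, Ntrk2 was lower in CD1530 at D6.75, by a log2 value of -0.70 ± 0.16 (adjusted p = 9.78e-04), and higher in CD1530 at D10, by 0.68 ± 0.11 (1.61-fold, adjusted p = 1.63e-06). At D6.25 the difference was -0.21 ± 0.13 (adjusted p = 0.57), at D7.5 it was 0.43 ± 0.18 (adjusted p = 0.0669) and at D8.5 it was -0.14 ± 0.12 (adjusted p = 0.373), none of which passed. The change from D6.25 to D10 was 0.90 ± 0.17 (adjusted p = 4.18e-05). The D6.75 call was lost with only the compared groups in the fit (adjusted p = 0.0929) and was -0.80 without the library that stood apart (adjusted p = 2.85e-04). The D7.5 difference passed without CD1530 replicate 1, at 0.54 (adjusted p = 0.0331).

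Against PM, the mean of both conditions for Ntrk2 was higher by 2.64 ± 0.17 at D6.25 (adjusted p = 1.43e-17), by 1.38 ± 0.19 at D7.5 (adjusted p = 3.46e-08) and by 3.75 ± 0.15 at D10 (13.4-fold, adjusted p = 1.43e-24). At D10 it was higher than PM by 4.09 ± 0.16 with CD1530 (adjusted p = 3.66e-25) and by 3.40 ± 0.17 with AGN (adjusted p = 3.27e-21). PM and CD1530 D10 were the lowest and highest groups and overlapped no neighbour.

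Bdnf, the ligand of TrkB, climbed through the course in both conditions. The PM libraries had 3.21, 3.21 and 2.10 CPM. The CD1530 mean was 3.87 ± 0.21 CPM at D6.25 and 4.41 ± 0.57 at D6.75, then 6.14 ± 0.55 by D7.5, 7.79 ± 0.53 at D8.5 and 11.6 ± 0.42 at D10. The AGN mean was 3.39 ± 0.27, 3.55 ± 0.53, 4.85 ± 0.58, 5.63 ± 0.68 and 8.64 ± 1.47 at the same times. The D10 libraries had 11.5, 11.3 and 12.1 CPM with CD1530 and 7.88, 7.71 and 10.3 with AGN, which did not overlap.

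Bdnf was higher in CD1530 by a log2 value of 0.45 ± 0.13 at D8.5 (1.37-fold, adjusted p = 0.00445) and by 0.42 ± 0.12 at D10 (1.34-fold, adjusted p = 0.00369). The differences of 0.19 ± 0.16 at D6.25 (adjusted p = 0.721), 0.30 ± 0.15 at D6.75 (adjusted p = 0.178) and 0.33 ± 0.14 at D7.5 (adjusted p = 0.0726) did not pass. The D7.5 value passed without CD1530 replicate 3, at 0.41 (adjusted p = 0.0497). No growth of the difference from D6.25 to D10 was detected (0.23 ± 0.20, adjusted p = 0.4).

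The mean of both conditions for Bdnf was higher than PM by 0.34 ± 0.14 at D6.25 (adjusted p = 0.0342), 0.47 ± 0.14 at D6.75 (adjusted p = 0.00319), 0.93 ± 0.14 at D7.5, 1.22 ± 0.13 at D8.5 and 1.81 ± 0.13 at D10 (3.495-fold, adjusted p = 2.47e-16). The D6.25 call did not hold without PM replicate 3 (0.17, adjusted p = 0.316), CD1530 replicate 1 (adjusted p = 0.0535) or AGN replicate 3 (adjusted p = 0.0694), nor by DESeq2 (adjusted p = 0.052). Without PM replicate 3, which has the lowest Bdnf of the PM libraries, the D6.75 value was 0.31 (adjusted p = 0.0679). At D10 Bdnf was higher than PM by 2.02 ± 0.14 with CD1530 (adjusted p = 1.09e-16) and by 1.59 ± 0.15 with AGN (adjusted p = 7.72e-13).

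Ntf3, the ligand of TrkC, was near the limit of counting, with 3 to 22 counts per library. Its group means ran from 0.41 CPM in CD1530 D8.5 to 1.10 ± 0.24 CPM in AGN D10, and all 10 neighbouring pairs in the order of the groups overlapped. No difference between conditions was detectable at this depth: it was 0.80 ± 0.40 at D6.25 (adjusted p = 0.428) and -0.31 ± 0.36 at D10 (adjusted p = 0.507). The mean of both conditions was higher than PM at D10 only among the 5 times, by 1.18 ± 0.36 (adjusted p = 0.00307). At D10 Ntf3 was higher than PM by 1.34 ± 0.41 with AGN (adjusted p = 0.003) and by 1.02 ± 0.42 with CD1530 (adjusted p = 0.0231). The CD1530 call was lost without PM replicate 1 (adjusted p = 0.0638) or CD1530 replicate 1 (adjusted p = 0.0807).

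**Figure D2:**
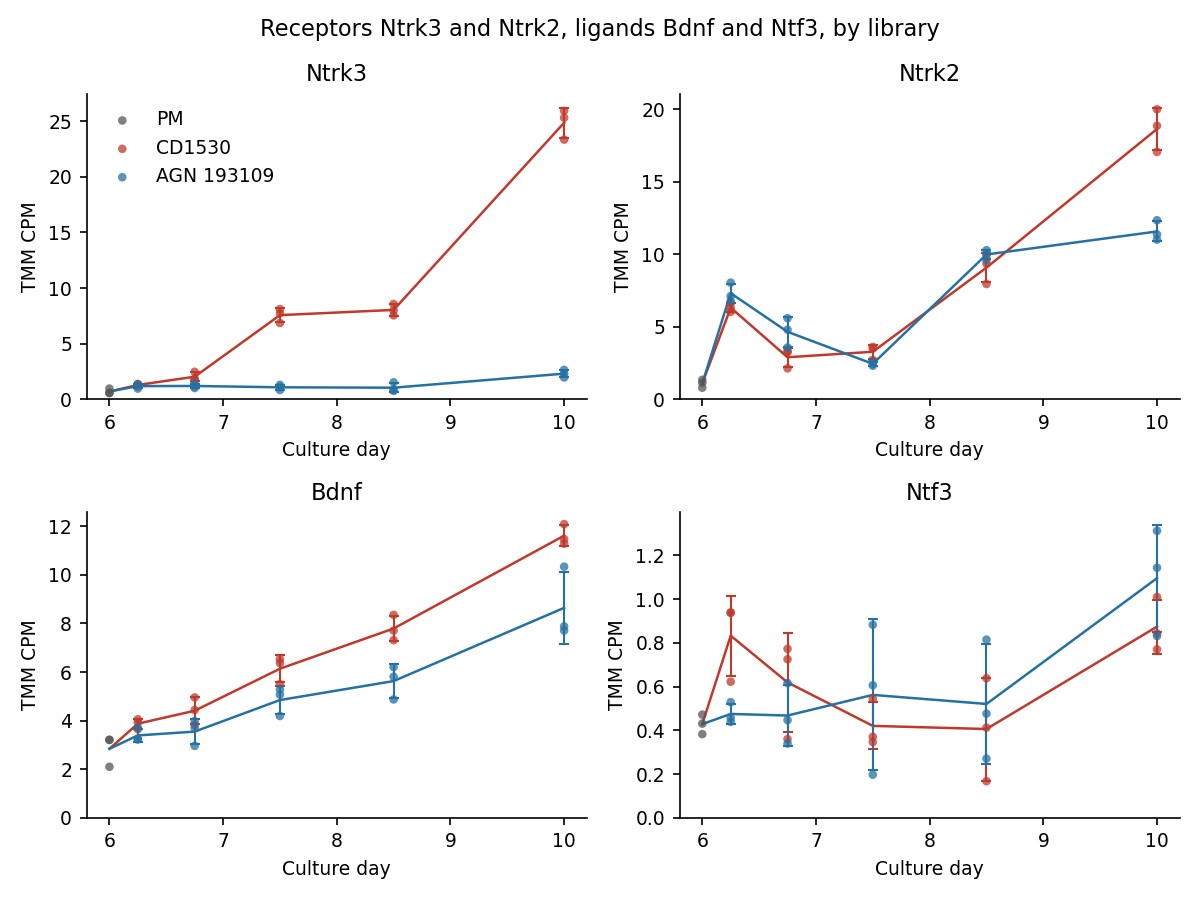
Levels in TMM CPM (vertical axes, each from 0 and with its own scale) by culture day (horizontal axes) of Ntrk3, Ntrk2, Bdnf and Ntf3. Points are libraries, lines join group means from PM, and bars are the SD of 3 libraries. Ntrk3 separates by condition from D7.5, Ntrk2 shows an early peak in both conditions, Bdnf climbs in both, and Ntf3 stays at or below 1.31 CPM in every library.

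Counted over the 4 relatives, the first time gave 0 calls between conditions, with 1.92% of all genes called by edgeR's quasi-likelihood test at D6.25, and 0 of the 4 had an unadjusted p under 0.05. DESeq2 called none of the 3 relatives for which it gave an adjusted p. At D6.75 Ntrk3 was called higher and Ntrk2 lower in CD1530, against 18.0% of all genes. At D7.5 Ntrk3 alone was called higher, against 26.9%, at D8.5 Ntrk3 and Bdnf, against 40.0%, and at D10 Ntrk3, Ntrk2 and Bdnf, against 46.6%. Against PM at D10 all 4 were called higher with CD1530 and all 4 with AGN, where 83.2% and 82.0% of all genes were called in either direction. Against shares of this size, counts over 4 genes say little about the family. The comparisons against PM share the PM libraries.

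**Figure D3:**
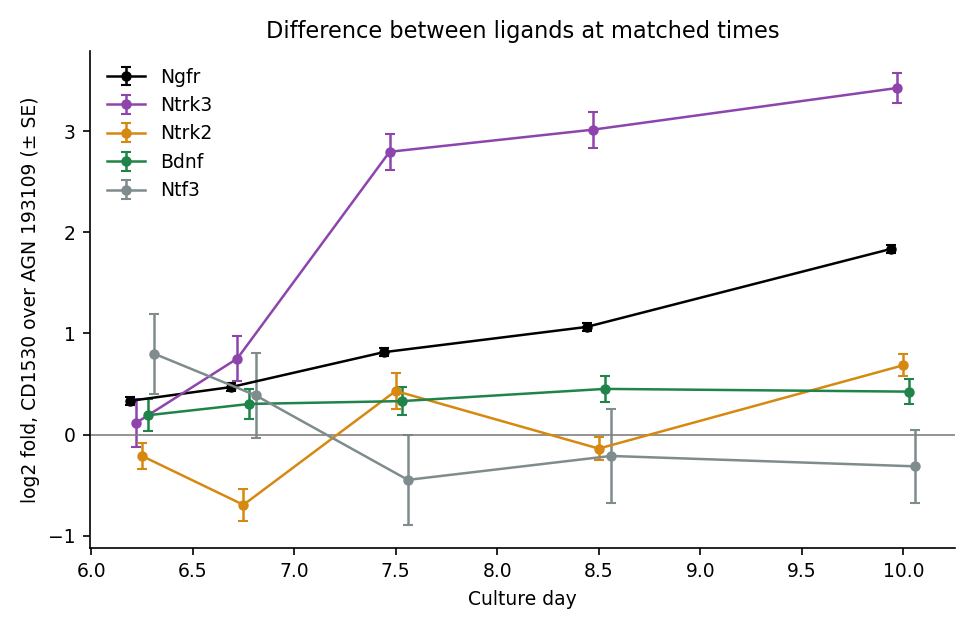
Log2 fold of CD1530 over AGN 193109 (vertical axis) by culture day (horizontal axis) for the 5 genes, with bars for the standard error of the fit on 33 libraries. Points of 1 day are shifted slightly sideways to be seen apart. Ngfr runs from 0.33 to 1.84, Ntrk3 from 0.11 to 3.43, Bdnf stays between 0.19 and 0.45, and Ntrk2 and Ntf3 lie on both sides of 0.

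Levels of different genes were compared per kilobase of exon (FPKM, CPM per kilobase), with exon lengths of 3446 bases for Ngfr, 19292 for Ntrk2, 30170 for Ntrk3, 6217 for Bdnf and 1714 for Ntf3. On this scale Ngfr was the most abundant of the 5 genes in every group, with a level of 13.0 in PM, 68.4 in CD1530 D10 and 19.2 in AGN D10. Bdnf came next with levels of 0.457, 1.87 and 1.39 in the same groups. Ntrk2 had 0.057, 0.967 and 0.601, Ntrk3 had 0.0233, 0.824 and 0.0765, and Ntf3 had 0.25, 0.51 and 0.64. The Ntrk lengths sum the exons of all isoforms and exceed that of any single transcript, so their FPKM levels are low estimates. In AGN D10 the order of Ntrk3 and Ntf3 was opposite to that in CD1530 D10.

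The other genes of the pathway were taken from a list of 42, of which 40 were in the table. The co-receptor Rtn4r and the immediate early gene Egr2 were not. Of the 40, only Dusp6, a phosphatase that ERK signalling induces, was called between conditions at the first time (0.17, adjusted p = 2.15e-04). The count was then 10 at D6.75 and 14 at D7.5, and it reached 21 at D8.5 and 26 at D10, while the share of all genes called grew from 18.0% and 26.9% to 40.0% and 46.6%. At D10, 16 were higher and 10 lower in CD1530, with a median log2 difference of 0.12 against -0.02 over all genes. Against PM, 36 of 40 were called at D6.25 and 39 at D10, of which 32 were higher, with a median of 0.63 against 0.03 over all genes. Of all genes, 71.5% were called at D6.25 and 84.9% at D10, with 43.4% higher at D10.

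Ntf5, a ligand of TrkB like Bdnf, was not called between conditions at D10, with a log2 difference of 0.23 ± 0.17 (adjusted p = 0.287). Its level was 2.51 ± 0.29 CPM in PM, 4.03 ± 0.50 in CD1530 D10 and 3.44 ± 0.32 in AGN D10.

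Among 8 co-receptors and sortilin-type partners of p75, 2 were higher and 2 lower in CD1530 at D10, where 22.7% of all genes were higher and 24.0% lower. Sorcs1, a sortilin-type receptor, was lower by -3.07 ± 0.13 (adjusted p = 6.14e-23), at 2.52 ± 0.29 CPM in CD1530 against 21.3 ± 0.77 in AGN, the reverse of Ngfr. It had been 0.83 CPM in PM and 16.9 ± 0.64 in AGN at D8.5. Of 4 proteases that process neurotrophin precursors or p75, 1 was higher and 1 lower, and of 8 adaptors that bind the p75 intracellular part, 1 was higher and 4 lower, with called differences between -0.17 and 0.18.

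Of 10 adaptors of the Trk kinases, 6 were higher and 2 lower in CD1530 at D10, beside the 22.7% and 24.0% of all genes. Shc3, an adaptor best known from neurons, was higher by 2.27 ± 0.32 (adjusted p = 1.03e-07), at 2.56 ± 0.38 CPM against 0.52 ± 0.14. Sh2b2 was higher by 1.15 ± 0.11 (adjusted p = 2.15e-11), at 13.5 ± 0.54 CPM against 6.05 ± 0.65. Of 7 genes that respond to the ERK kinases, 5 were higher and 1 lower at D10, with sums of 611 to 613 CPM in CD1530 against 512 to 527 in AGN. At D8.5 none was higher and 5 were lower, where 20.4% of all genes were higher and 19.6% lower. The D8.5 sums were 522 to 527 CPM in CD1530 against 652 to 665 in AGN. Of these, Dusp6 alone was at 305 CPM against 381. The lower gene at D10 was Arc, a gene of synaptic activity, at -1.20 ± 0.17 (adjusted p = 1.21e-07), with 1.90 ± 0.44 CPM in CD1530 and 4.38 ± 0.48 in AGN. Egr1 was at 184 CPM in CD1530 D10 against 117 in AGN D10, and Dusp6, not called there, at 279 against 290. FGF2, which was in the medium of all induced cultures, also acts through the ERK kinases.

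**Figure D4:**
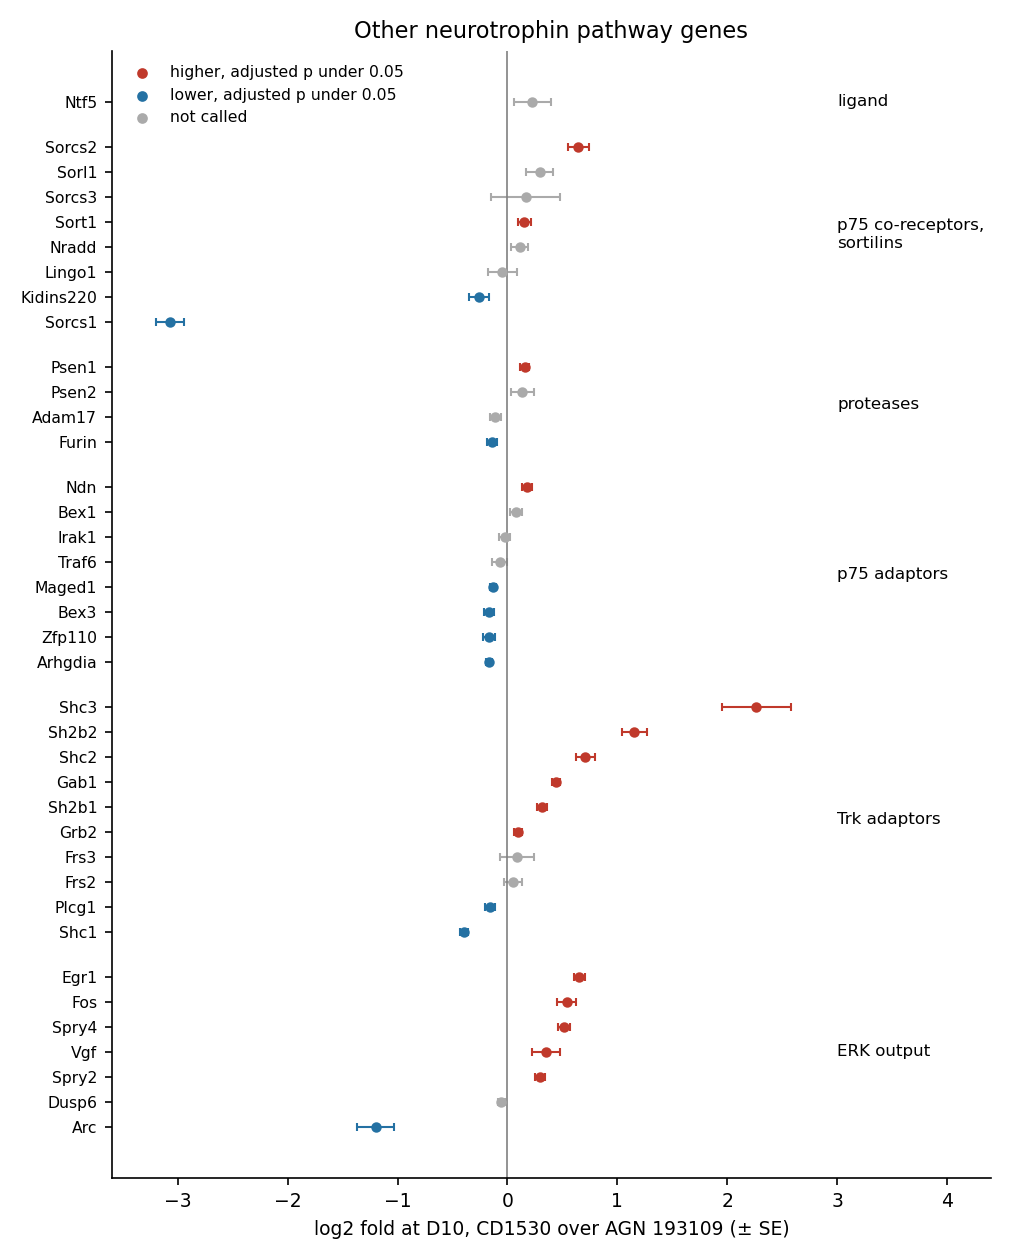
Log2 fold of CD1530 over AGN 193109 at D10 (horizontal axis) for other genes of the neurotrophin pathway, 1 per line, grouped by role, with bars for the standard error. Red and blue points passed the test as higher or lower in CD1530, and grey points did not. Shc3 and Sh2b2 lie above 1, and Sorcs1 and Arc lie under -1.

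Markers of other cell types differed between conditions at some of the times, beside 22.7% of all genes higher and 24.0% lower in CD1530 at D10. At D10, 6 of 6 neural progenitor genes were higher in CD1530, with a summed level of 130 to 145 CPM in its libraries against 58.7 to 62.8 in AGN. Most of these sums was Sox2, at 77.9 CPM in CD1530 and 49.2 in AGN, which is also a pluripotency gene and stood at 535.5 CPM in PM. The sum of the 3 pluripotency genes ran the other way, at 150.6 CPM in CD1530 D10 and 233.8 in AGN D10. By gene, however, 2 of the 3, Sox2 among them, were called higher in CD1530 and 1 lower, with log2 differences from -2.49 to 0.66. Of the other progenitor genes, Sox1 was at 16.0 CPM against 0.37 and Pax6 at 10.4 against 0.36, and Neurog2 was at 2.64 CPM against 0 counts in every AGN D10 library. Of 7 neuronal genes 4 were higher and 1 lower in CD1530, with sums of 101 to 104 CPM against 58.2 to 63.3. The neuronal sum in PM was 159 CPM, above both conditions at D10. At D8.5, 4 of the 6 neural progenitor genes were higher in CD1530 and 0 lower, with mean sums of 238 CPM against 146 in AGN. Sox1 was then at 29.5 CPM against 0.75. Of the 7 neuronal genes, 2 were higher and 3 lower at D8.5, with mean sums of 113 CPM in CD1530 and 117 in AGN. Of all genes, 20.4% were higher and 19.6% lower in CD1530 at D8.5. Of 4 endothelial genes, 4 were higher in CD1530 at D7.5, where 15.2% of all genes were higher and 11.8% lower. The endothelial sums were then 389 to 410 CPM against 233 to 258, and at D10, 2 of the 4 genes were higher and 1 lower. The part of these cell types in the levels of Ngfr, Ntrk2 and Ntrk3 was not tested.

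Of 9 neural crest and Schwann cell genes 6 were in the table. At D10, 3 were higher and 1 lower in CD1530, beside 22.7% and 24.0% of all genes. The sums were 38.0 to 38.4 CPM in CD1530 against 19.4 to 24.3 in AGN. Sox10, which defines these cells, was at 0.84 CPM in PM, 1.77 in CD1530 D10 and 0.81 in AGN D10. The summed level was 58.6 CPM in PM, and the sums of both conditions at D10 were below it. Most of the PM sum was Erbb3, at 40.5 CPM in PM, 10.7 in CD1530 D10 and 9.67 in AGN D10. Against PM at D10, 3 of the 6 genes were higher and 2 lower with CD1530, and 1 was higher and 2 lower with AGN. Of all genes, 43.3% were higher and 39.9% lower with CD1530, and 41.6% and 40.4% with AGN. Of the 5 mural genes, which mark pericytes, 3 were higher and 2 lower in CD1530, with sums of 346.5 to 365 CPM against 517 to 575.

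Of the intended cell types, 6 of 6 cartilage genes were lower in CD1530 at D10, with sums of 749 to 763 CPM against 3980 to 4166 in AGN. Of 6 tendon genes, 4 were lower and none was higher, with sums of 15047 to 15707 CPM against 19864 to 21043. Of all genes, 22.7% were higher and 24.0% lower in CD1530 at D10. Mkx, a tendon transcription factor, was at 36.7 and 37.2 CPM. The part of these shifts in the level of Ngfr was not tested.

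**Figure D5:**
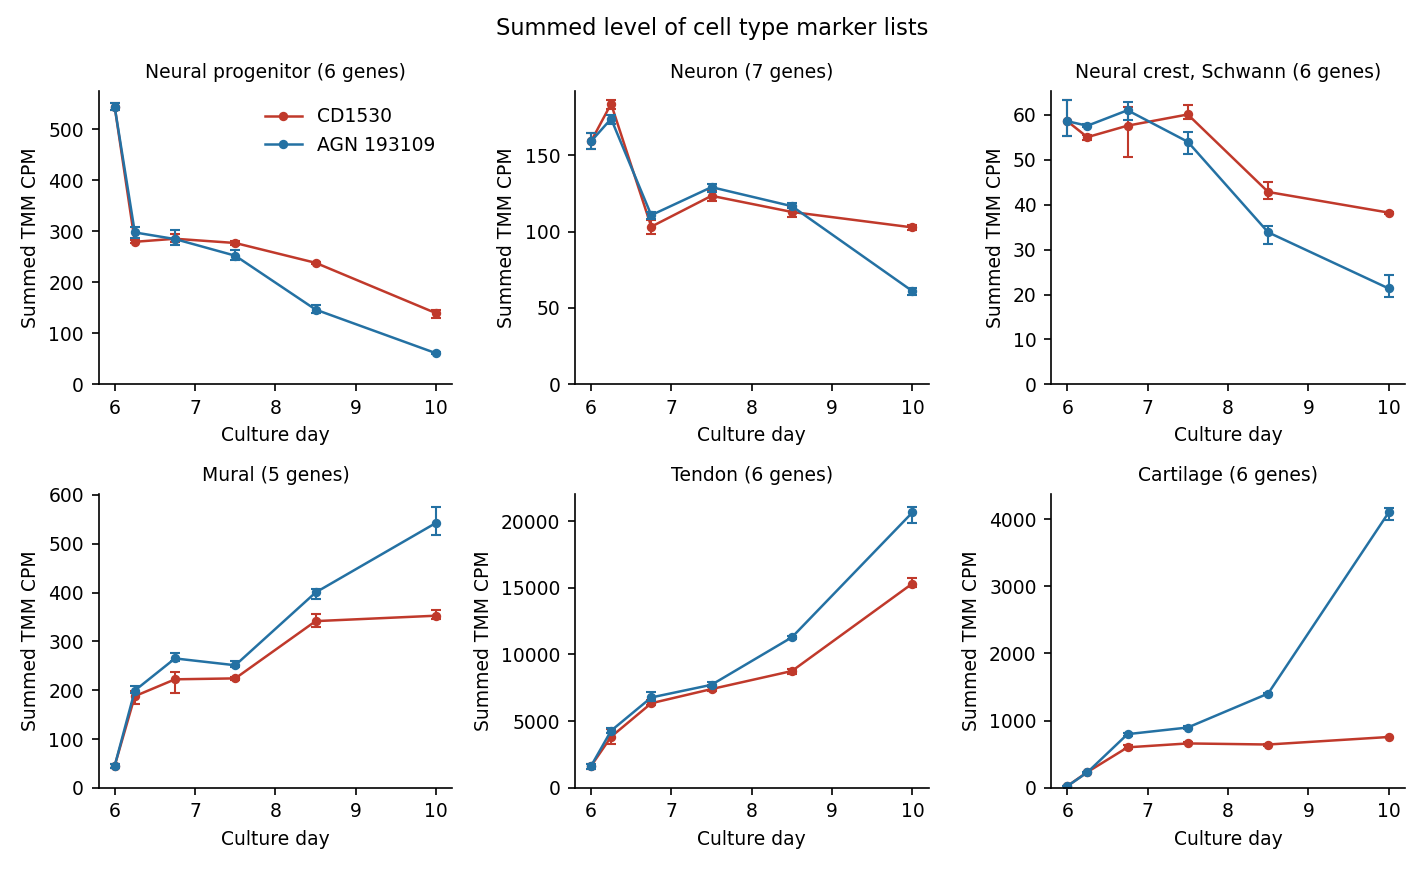
Summed level of 6 marker lists in TMM CPM (vertical axes, each from 0 with its own scale) by culture day (horizontal axes). Points are group means of 3 libraries joined from PM, and bars run from the lowest to the highest library. At D10 the neural progenitor, neuronal and neural crest sums are higher in CD1530, and the mural, tendon and cartilage sums are higher in AGN.

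The genes whose pattern over the 11 group means of log2(CPM + 1) was most like that of Ngfr were sought among 13365 genes with at least 5 CPM in a group. They were Add3, an adducin of the membrane skeleton (Pearson r = 0.97), Gas7 (0.96), Acsl4, a fatty acid CoA ligase (0.95), Olr1, a scavenger receptor (0.95), and Hdhd3 (0.95). Olr1 was at 2.39 CPM in PM, 36.8 in CD1530 D10 and 4.2 in AGN D10, and Gas7 was at 16.8, 81.1 and 19.2. The most opposite genes were Mapk4 (-0.95), Gm6552 (-0.94) and Grik3, a kainate receptor subunit (-0.92). By rank correlation none of the first 5 stayed among the 5 most alike, and the lowest of them had a coefficient of 0.88, so the order among the leading genes is not fixed by these data.

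Among the relatives, the r with Ngfr was 0.83 for Ntrk3, 0.63 for Bdnf, 0.50 for Ntrk2 and 0.02 for Ntf3. The genes most like Ntrk3 were Gli3, a hedgehog pathway transcription factor (0.99), Cpne8 (0.97) and Aldh3a2 (0.97), those most like Ntrk2 were Abhd13, Tmem123 and Jag1, a Notch ligand (0.97 to 0.98), and those most like Bdnf were Crim1, Glipr1 and Irf2bp2 (0.98 each). Those most like Ntf3 were Tm2d1, Tmub1 and Dazap2 (0.89 to 0.90). The 11 points share PM and the common course of time, and these coefficients are descriptions without a test.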

How the data were processed

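The authors aligned the reads of 33 RNA-seq libraries to GRCm38 with STAR, counted them with featureCounts and deposited unnormalised counts. Every gene in the table reached at least 0.611 CPM in its third-highest library, here on library totals without TMM scaling. Strand setting, annotation release and treatment of multi-mapped reads are not given in the sources used here. Positions and exon lengths came from GENCODE M21 (17117 of 17120 identifiers matched).

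A group-means model of all 33 libraries was fitted in edgeR 4.0.16 (R 4.3.3), with TMM normalization and the robust quasi-likelihood F test, and no covariates. The filterByExpr filter removed 0 genes. P-values were adjusted by Benjamini and Hochberg over all 17120 genes separately for 13 contrasts, with 0.05 as the limit for a call. Every adjusted p here is from this test unless DESeq2 1.42.0 is named. CPM are on TMM-scaled totals, and precision is limited by 3 libraries a group and, for the rarest genes, by counts. The common biological coefficient of variation was 4.68%. Replicate numbers were not used as pairs: the deviations of 15 same-numbered pairs correlated between -0.07 and 0.03.

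The 5 genes and the gene lists were chosen with earlier results of these data known. Named besides them were list genes not in the table, list genes called at D10 with an absolute log2 difference of at least 1, list members giving a range, defining markers, and the genes most alike or opposite over the groups. Scx, Mkx, Pou5f1, Nanog and Egr1, and Ntf5, Gm45346 and Dusp6, were named to state a level, an overlap or a member that did not pass or was called alone. Some genes these rules name are not reported here, though the counts over lists include them. The alternatives were DESeq2 size factors, library size only, no filter, a filter at 1 CPM in 3 libraries, DESeq2, only the compared groups, the replicate block and each library left out.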

Additional observations from a re-analysis of the deposited data

Results flagged for a closer look

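In 2 of the 4 relatives of Ngfr the difference between CD1530 and AGN changed from the first to the last time by the interaction test of the edgeR fit. For Ntrk3 the log2 difference grew by 3.31 ± 0.30, from 0.11 at D6.25 to 3.43 at D10. For Ntrk2 it grew by 0.90 ± 0.17, from -0.21, which did not pass the test, to 0.68. For Bdnf and Ntf3 the change was not called. Of all 17120 genes 33.3% were called in this test. With 3 libraries a group, no outlier test was run on the single values of these genes.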

How the results depend on the processing

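With only the compared groups in the fit, 804 genes instead of 329 were called between conditions at D6.25, with 2 instead of 1 of the pathway genes, and 1236 instead of 3076 at D6.75, with 5 instead of 10. The cause was not tested. With 1 library left out, 196 to 276 genes and 1 to 2 pathway genes were called at D6.25. There the counts of genes were 218 without CD1530 replicate 1, 214 without CD1530 replicate 3, 200 without AGN replicate 1 and 196 without AGN replicate 3, and the second pathway gene came without CD1530 replicate 2. The same counts stayed within 1.5 times at the other times, with 2452 to 3428 genes at D6.75 and 7170 to 7283 at D10. For the relatives, calls that changed are given beside their values. They were those of Ntrk2 and Ntrk3 at D6.75, of Ntrk2 and Bdnf at D7.5 between conditions, and of Bdnf at D6.25 and D6.75 and Ntf3 in CD1530 D10 against PM. No called value changed its sign under any of these alternatives. The D10 difference of Ngfr was 1.82 to 1.86 with 1 library left out. With library size only as the scaling, the median of all genes against PM at D10 moved by -0.11 with CD1530 and -0.15 with AGN, and Ngfr stood at 2.28 and 0.41 in place of 2.40 and 0.56. The replicate block moved none of 84 results past the threshold or beyond 1.5 times, with 7914 genes called at D10, and only 2 of 15 libraries correlated best with their own number. By rank correlation 0 of the 5 genes most like Ngfr remained, and 4 of 5 with a pseudocount of 0.25.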
